A study of Mus musculus with 23 samples.

Results

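Expression of the collagen genes was examined in lung RNA-Seq libraries from 23 adult offspring. A gene was counted as a collagen gene if its symbol was that of a collagen chain and if it reached 0.5 RPM, the read count of a gene scaled to the size of the library, in at least 4 of the 23 libraries. This gave 37 collagen genes, out of 44 collagen symbols and out of 16795 genes that passed the same filter. Of the 37, 9 code for fibrillar collagens, 6 for the type IV collagen of basement membranes and 22 for other collagens. The 7 symbols left out were Col2a1, Col9a1, Col9a2, Col10a1, Col11a1, Col19a1 and Col22a1, which held between 0 and 30 reads each in all libraries together. Of the members, Col26a1 was nearest to the limit, with 0.5 RPM reached in 6 libraries, followed by Col25a1 with 10. The 6 were all from mice challenged with allergen and the 10 all from unchallenged mice. Col28a1 reached it in 13 libraries, mostly of unchallenged mice. The direction of these genes after challenge is therefore not independent of the filter, wherever they are counted below. Nearest outside were Col22a1 and Col2a1, whose highest values were 0.444 and 0.347 RPM.

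The offspring were Balb/c mice, 13 weeks old and labelled female, in 4 groups. Sham (n = 7) and Sham-OVA (n = 5) were born to dams given intranasal saline, and PM (n = 7) and PM-OVA (n = 4) to dams given fine particulate matter (PM2.5) before mating, through gestation and until weaning. Sham-OVA and PM-OVA were sensitised to ovalbumin (OVA) with alum and challenged with OVA aerosol, which induces allergic airway disease (AAD). Sham and PM received PBS by the labels, or nebulised saline by the study's methods. The methods describe sensitisation of each offspring and do not say separately whether Sham and PM were sensitised. The tissue was whole lung, named RML in the labels and right lower lobe in the methods, taken after lung function testing. In whole tissue, fewer cells of a type and less RNA per cell cannot be told apart. Nothing in the labels ties libraries to litters or dams, so p-values measure the spread between these libraries only.

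Collagens are trimers of chains wound into a helix. Fibrillar collagens form the tensile cables of the lung interstitium. Type IV collagen forms the sheet on which epithelium and endothelium rest, and the network made from the Col4a3, Col4a4 and Col4a5 chains is characteristic of the alveolar wall. Type VI collagen forms beaded microfibrils beside basement membranes, FACIT collagens sit on the surface of fibrils, and transmembrane collagens are anchored in the cell membrane. Collagen deposition around the airways is a known feature of asthma.

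The saline-challenged groups held 13089691 to 17393579 reads on genes per library, Sham-OVA 2298645 to 12185451 and PM-OVA 4324326 to 12355561. One read was worth at most 0.0688 RPM in Sham and PM, and 0.311 RPM in Sham-OVA replicate 3, the shallowest library. A few libraries stood apart over the collagen genes. Sham-OVA replicate 3 was the lowest of its group for 25 of 37, PM-OVA replicate 1 the highest of its group for 28 and PM replicate 5 the highest of its group for 23. Sham replicate 1 went against its female label, with 0.289 RPM of Xist and 222 RPM of 4 Y-linked genes, whereas the other 22 libraries held 174 to 1618 RPM of Xist and at most 0.132 RPM of the Y-linked genes.

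The results turn on Col4a3, which fell most under OVA, and Col6a5, which rose most. For that reason the DNA before their first exons is shown, from RefSeq on build GRCm38.p6, which lists 30 of the 37 genes with a promoter. Col4a3 and Col4a4 are transcribed away from each other, and only 71 bases lie between their starts, at chr1:82586850-82586920. The same arrangement is found for Col4a1 and Col4a2, which overlap by 22 bases at their starts, and for Col4a5 and Col4a6, 1308 bases apart. Col6a4, Col6a5 and Col6a6 follow each other on 1 strand of chromosome 9. The 250 bases before Col6a5 lie at chr9:105960644-105960893. Both stretches are written 5′ to 3′ on the minus strand, and capitals mark a match to a searched motif.
Col4a4 to Col4a3 interval: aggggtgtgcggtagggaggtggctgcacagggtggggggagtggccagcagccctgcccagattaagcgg
Col6a5 upstream: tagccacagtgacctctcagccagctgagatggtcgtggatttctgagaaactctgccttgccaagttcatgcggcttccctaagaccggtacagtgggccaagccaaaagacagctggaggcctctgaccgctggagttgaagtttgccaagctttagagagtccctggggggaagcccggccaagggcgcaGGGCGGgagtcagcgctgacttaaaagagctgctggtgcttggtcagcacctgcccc
Both strands were searched for a TATA box with the letters TATAAA, for a CCAAT box with those letters, for a GC box with the letters GGGCGG and for the N4 STAT6 element, an inverted repeat bound by STAT6, the factor downstream of IL-4 and IL-13. The interval between Col4a4 and Col4a3 held none of these letters, which in windows of 71 bases were found in 4.41%, 13.3%, 20.7% and 1.43% of 32851 promoters. The stretch before Col6a5 held 1 GC box, starting 57 bases before the start of the gene, a motif found in 32.7% of all promoters at this length. Of the 30 collagen genes with a listed promoter, 19 held a GC box, 11 a CCAAT box (33.8% of all promoters), 4 a TATA box (12.4%) and 0 the STAT6 element (5.85%). A gene was counted if any of its listed promoters matched, whereas the percentages are of single promoters. A match is a description of the sequence and not a binding site.

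In Sham lung, per kb of exon, the basement membrane chains Col4a1 and Col4a2 were the most abundant collagen mRNAs, at 103 ± 25.0 and 96.2 ± 18.9 RPM per kb (SD, n = 7). Col6a1, a core chain of type VI collagen, followed at 59.1 ± 9.60 RPM per kb. Col3a1, a chain of a main fibrillar collagen, was next at 35.3 ± 7.68 RPM per kb. Col1a1, another such chain, was at 25.6 ± 1.95 RPM per kb. It lay within the spread of Col6a2 (27.2 ± 4.47), Col4a3 (25.5 ± 5.69), Col4a4 (24.7 ± 3.03) and Col1a2 (22.6 ± 3.74 RPM per kb). The order can depend on the length used, since all annotated exons were summed. They came to 12426 bases for Col1a2, against 5348 in its longest transcript. For Col3a1 these lengths were 9816 and 5564 bases, and for Col6a1 4380 and 4100 bases. Type IV collagen made up 48.7 ± 5.92% of the collagen RPM of Sham lung.

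OVA challenge was compared with saline within each maternal group, with limma on log2(RPM + 0.5) and Benjamini-Hochberg adjustment over all genes. In Sham offspring 9 collagen genes rose, 16 fell and 12 did not pass the test at an adjusted p of 0.05, with a background of 20.6% of all genes higher and 47.5% lower. In PM offspring 10 rose, 16 fell and 11 did not pass, with a background of 20.1% higher and 45.2% lower. The counts are therefore close to the shares of all genes, and the pattern lies in which collagens moved. The same 6 genes rose in both comparisons (Col6a1, Col6a2, Col6a5, Col11a2, Col14a1 and Col16a1) and the same 16 fell. The median log2 fold change of the collagen genes was −0.20 for Sham offspring and −0.29 for PM offspring, compared with −0.48 and −0.43 for all genes tested. Those shifts of the median gene depend on how libraries are scaled, moving to −0.09 and −0.04 with TMM scaling. Higher calls made up 36.0% of the collagen calls in Sham offspring as deposited and 56% with TMM scaling (38.5% and 46.4% in PM offspring). Over all genes, 3453 of 11431 calls in Sham offspring were higher as deposited and 5293 of 11199 with TMM scaling. In PM offspring these were 3379 of 10968 and 5345 of 10843, so genes at large moved the same way.

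At an unadjusted p of 0.05, 25 collagen genes were counted in Sham offspring (70.9% of all genes) and 28 in PM offspring (68.8%), and at the adjusted threshold 68.1% and 65.3% of all genes were called in either direction. The OVA and saline libraries did not overlap for 5 higher and 10 lower collagen genes in Sham offspring (13.2% and 35% of all genes) and for 4 higher and 12 lower in PM offspring (13.3% and 28.6%). With a log2 change above 1 required as well, 6 rose and 11 fell in Sham offspring (41.4% of all genes in either direction) and 4 rose and 13 fell in PM offspring (37.8%). At the study's stricter threshold, an adjusted p under 0.000001 with that log2 change, limma passed Col6a5 and Col4a4 in Sham offspring (4.51% of all genes). In PM offspring it passed 0 (0.286%). The study set this threshold on DESeq2, which here passed 4814 of 16795 genes in Sham offspring and 2817 in PM offspring. The limma counts therefore do not stand for the study's own criterion.

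Other scalings called more collagen genes higher in Sham offspring, as they did for genes at large. TMM scaling gave 14 higher and 11 lower (31.5% and 35.2% of all genes) in Sham offspring and 13 and 15 (31.8% and 32.7%) in PM offspring. Median-of-ratios scaling gave 14 and 14 (29.2% and 38.1%) and 12 and 16 (28.9% and 35.7%), and quantile normalisation 15 and 13 (32.7% and 34.6%) and 13 and 14 (31.5% and 32.4%). The added genes of Sham offspring included both type I chains, Col1a1 and Col1a2. On recovered reads, DESeq2 called 14 and 13 (31.5% and 38.1%) and 13 and 14 (31.7% and 32%), and edgeR 14 and 11 (33.2% and 33.8%) and 13 and 15 (30.5% and 30.3%). Removing a length and GC trend gave 15 and 9 (31.8% and 31.7%) and 13 and 10 (29.3% and 29.6%). Over the 7 scalings and fits so far, values as deposited included, the 6 genes that rose in both maternal groups were called each time, and 8 of the 16 that fell were. Col4a3 is not among the 8 because DESeq2 gave it no adjusted p in PM offspring. Array weights, which count a scattered library less, gave 13 and 16 (26.9% and 49.4%) and 8 and 17 (19.5% and 50.7%). Without Sham replicate 1, Sham-OVA replicate 3 and PM-OVA replicate 1, counts were 12 and 14 (24.2% and 47.1%) and 7 and 18 (21.5% and 50.5%).

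**Figure D1:**
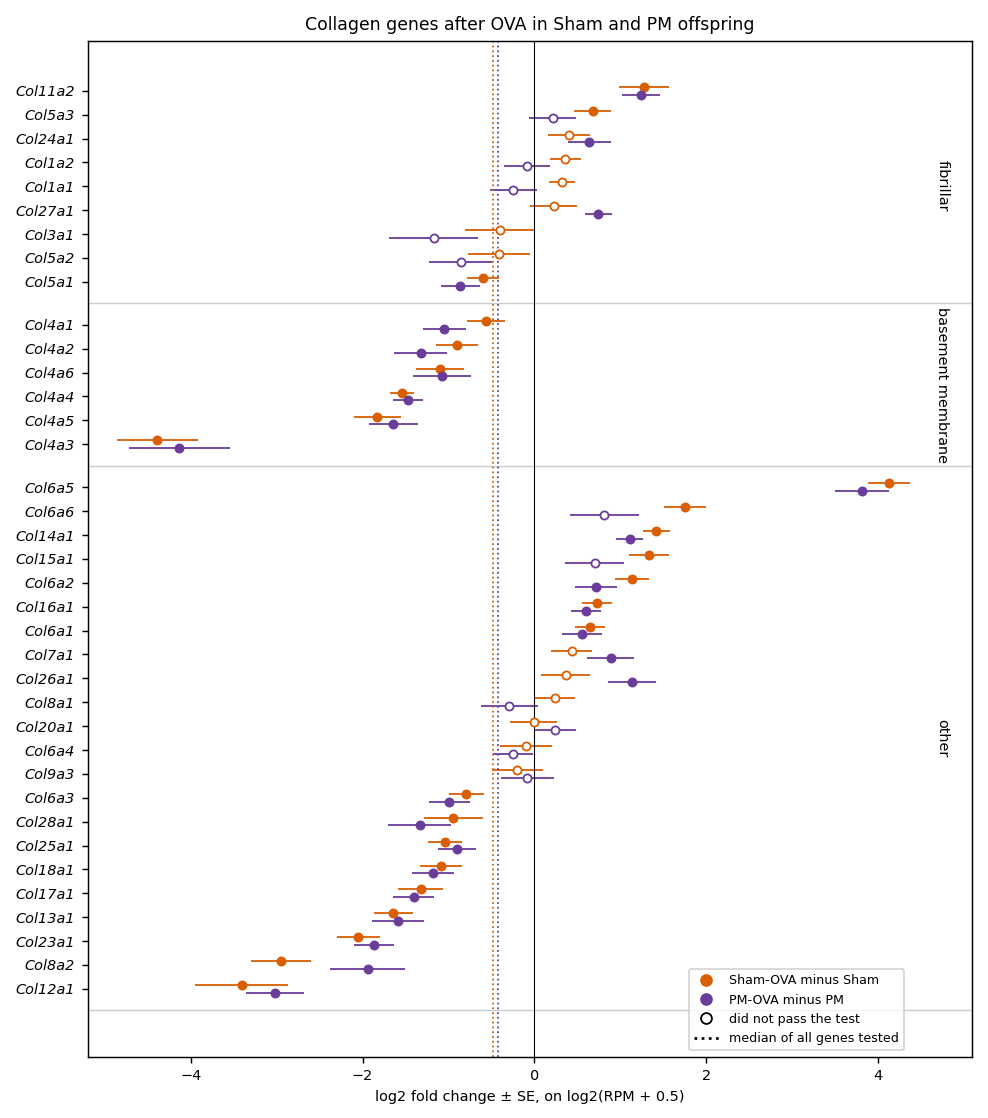
Log2 fold change (OVA against saline, horizontal axis) of each of the 37 collagen genes in Sham and PM offspring, grouped by class. Points are estimates with bars of 1 SE, filled where the limma test was passed, and the dotted line is the median of all genes tested (−0.48 and −0.43). Type IV and transmembrane collagens lie to the left and Col6a5 stands far to the right.

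All 6 type IV genes fell in both comparisons as deposited, although Col4a1 in Sham offspring lost its direction under an alternative described further on, with a median log2 fold change of −1.32 in Sham and −1.40 in PM offspring. The fall was deepest in Col4a3, a chain of the alveolar network, and shallowest in Col4a1, a chain of the network found in nearly every basement membrane. Col4a3 measured 145, 267 and 316 RPM in Sham (lowest, median and highest) and 20.6, 12.8, 1.55, 20.3 and 18.7 RPM in Sham-OVA replicates 1 to 5. It measured 246, 287 and 311 RPM in PM and 73.2, 30.5, 6.77 and 3.63 RPM in PM-OVA replicates 1 to 4. No OVA library reached a saline library, although the OVA libraries themselves spread widely, and the lowest value rests on 5 reads. The log2 fold change was −4.39 ± 0.47 (SE) in Sham offspring, 21.0-fold lower (limma, adjusted p = 2.03e-06), and −4.13 ± 0.59 in PM offspring, 17.5-fold lower (limma, adjusted p = 0.000141). Leaving out single libraries moved these values between −4.60 and −3.76, the latter without Sham-OVA replicate 3, and between −4.86 and −3.48, without PM-OVA replicates 1 and 4. An antisense gene overlaps exons of Col4a3 but averaged only 0.36 RPM.

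Col4a4, the neighbour and partner chain of Col4a3, measured 206, 264 and 306 RPM in Sham and 102, 86.0, 70.5, 102 and 88.5 RPM in Sham-OVA. In PM it measured 230, 262 and 279 RPM, and in PM-OVA 142, 92.6, 66.6 and 81.7 RPM. The groups did not overlap, and Col4a4 varied less between OVA libraries than Col4a3 did. It fell by 1.54 ± 0.14 on the log2 scale in Sham offspring (2.91-fold; limma, adjusted p = 3.82e-07) and by 1.47 ± 0.17 in PM offspring (2.77-fold; limma, adjusted p = 5.19e-05). Col4a5, the remaining chain of the alveolar network, fell 3.55-fold and 3.12-fold (log2 −1.83 ± 0.28 and −1.64 ± 0.29), also without overlap.

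Col4a1 measured 460, 850 and 935 RPM in Sham and 616, 594, 337, 615 and 434 RPM in Sham-OVA. In PM it measured 852, 939 and 1580 RPM, and in PM-OVA 812, 565, 369 and 330 RPM. The Sham and Sham-OVA libraries overlapped, while all PM-OVA libraries lay below all PM libraries. Col4a1 fell by 0.57 ± 0.22 on the log2 scale in Sham offspring (limma, adjusted p = 0.0321) and by 1.05 ± 0.25 in PM offspring (limma, adjusted p = 0.00297). Its partner Col4a2 fell by 0.90 ± 0.25 and 1.32 ± 0.31 (limma, adjusted p = 0.00491 and 0.0025), and the call in Sham offspring was lost with TMM scaling (−0.44, adjusted p = 0.0628), with edgeR and with a length and GC trend removed. Col4a6, a chain of few basement membranes and the least abundant of the class at 1.14 to 2.66 RPM in Sham, fell by 1.09 ± 0.28 and 1.08 ± 0.34. Both calls were lost with that trend removed, and the call in PM offspring also with DESeq2 (−0.88, adjusted p = 0.0686), with edgeR and without PM-OVA replicate 3 or 4 (adjusted p = 0.057 and 0.0546).

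The number of type IV genes called lower ranged from 3 to 6 of 6 in Sham offspring and from 4 to 6 of 6 in PM offspring over 14 fits that changed the scaling, the model or the libraries. The Col4a1 fall in Sham offspring was the weakest: it was −0.11 on the log2 scale with TMM scaling (adjusted p = 0.641), turned to 0.09 once a length and GC trend was removed (adjusted p = 0.684), and missed the threshold at −0.42 without Sham-OVA replicate 3 (adjusted p = 0.0637).

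**Figure D2:**
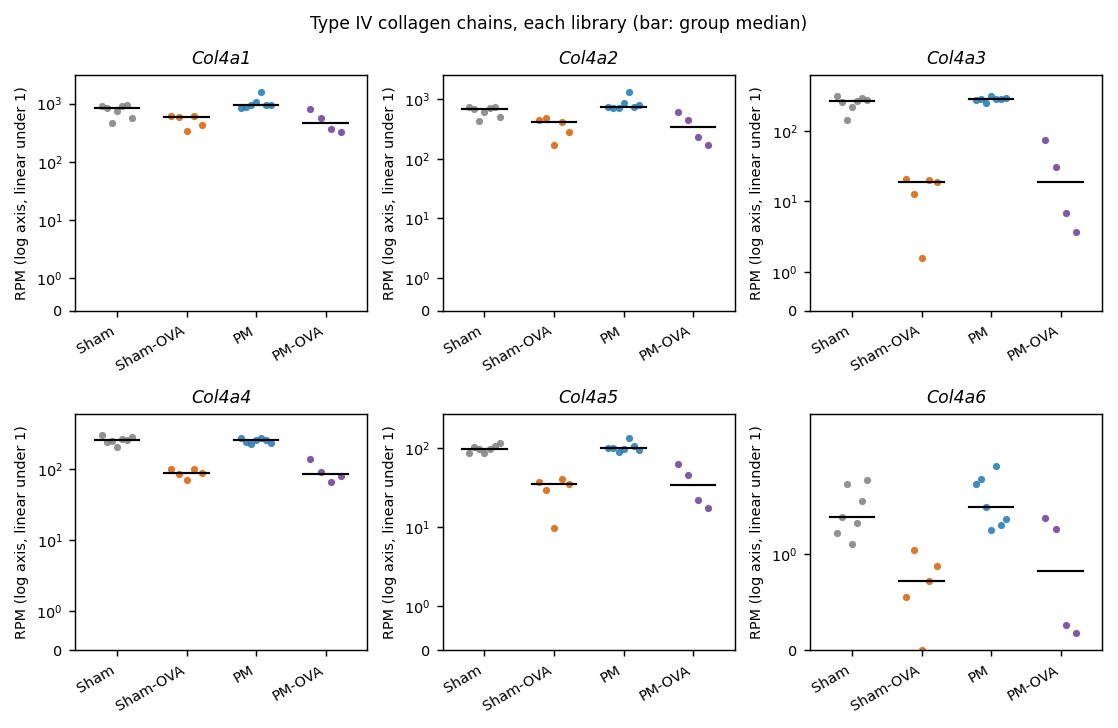
RPM of the 6 type IV collagen genes in each library (vertical axis, log scale that is linear under 1 RPM), with points from left to right by replicate number and a bar at the group median. Sham-OVA and PM-OVA libraries of Col4a3 and Col4a4 lie below every Sham and PM library, and Sham-OVA replicate 3 is the lowest point for Col4a3 at 1.55 RPM.

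The scaling of a library moves the level of every gene, but nearly cancels in the ratio of a pair of well-expressed genes. Ratios of 7 pairs, with 0.5 RPM added to each gene, were compared with two-sided exact permutation tests, 28 in all, with Benjamini-Hochberg adjustment. Col4a3 to Col4a4 stood at 0.571 to 1.11 in Sham and 1.00 to 1.25 in PM, so both chains were at similar RPM without OVA challenge. In Sham-OVA the ratio was 0.206, 0.154, 0.0289, 0.204 and 0.216, and in PM-OVA 0.515, 0.333, 0.108 and 0.0503. Every OVA library lay below every saline library. With nothing added, the lowest value, in Sham-OVA replicate 3, would be 0.022 in place of 0.0289. The mean log2 ratio fell from −0.07 ± 0.33 (SD, n = 7) to −2.92 ± 1.24 (n = 5) in Sham offspring (exact permutation p = 0.00126, adjusted p = 0.0118) and from 0.15 ± 0.11 (n = 7) to −2.52 ± 1.53 (n = 4) in PM offspring (exact permutation p = 0.00303, adjusted p = 0.017). These are the smallest p-values these group sizes allow. Col4a3 fell against Col4a1 as well, by 3.82 and 3.09 on the log2 scale (exact permutation, adjusted p = 0.0118 and 0.017).

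Col4a1 to Col4a2, the pair of the widespread network, moved much less. Its mean log2 ratio was 0.26 ± 0.09 in Sham (n = 7) and 0.59 ± 0.26 in Sham-OVA (n = 5), a rise of 0.33 (exact permutation p = 0.00505, adjusted p = 0.0202). In PM offspring the rise of 0.28 did not pass (exact permutation p = 0.0182, adjusted p = 0.0636, n = 7 and 4). Groups overlapped in both, and without Sham replicate 1, Sham-OVA replicate 3 and PM-OVA replicate 1 the rise in Sham offspring was 0.24 (exact permutation, adjusted p = 0.0571).

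**Figure D3:**
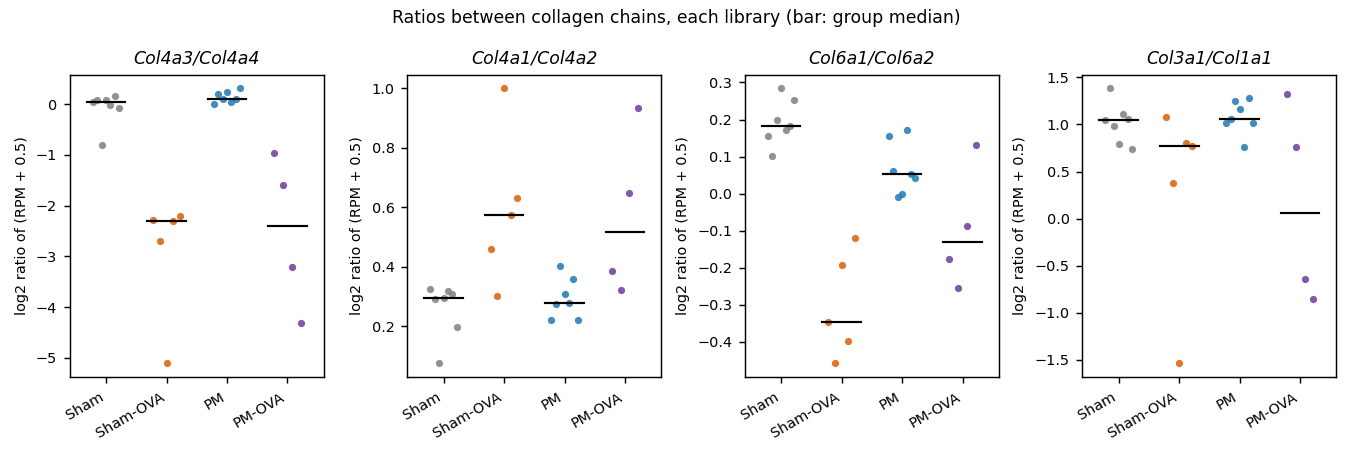
Log2 ratio of Col4a3 to Col4a4, Col4a1 to Col4a2, Col6a1 to Col6a2 and Col3a1 to Col1a1 in each library (vertical axis, each gene as RPM + 0.5), with points from left to right by replicate number and a bar at the group median. As linear ratios, Col4a3 to Col4a4 lies between 0.0289 and 0.515 in the OVA libraries and between 0.571 and 1.25 in the saline libraries.

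The type VI chains moved in both directions. Of 6 genes, 4 rose and 1 fell in Sham offspring, and 3 rose and 1 fell in PM offspring, with median log2 fold changes of 0.89 and 0.64. Col6a5, a long chain that can take the place of Col6a3 in type VI microfibrils, measured 1.62, 2.51 and 2.85 RPM in Sham (lowest, median and highest) and 68.2, 61.2, 24.2, 59.7 and 47.7 RPM in Sham-OVA. It measured 1.45, 2.08 and 2.66 RPM in PM and 75.6, 36.8, 17.8 and 31.6 RPM in PM-OVA. The lowest OVA library was several times above the highest saline library. Col6a5 rose by 4.13 ± 0.24 on the log2 scale in Sham offspring (17.5-fold; limma, adjusted p = 9.96e-09) and by 3.81 ± 0.32 in PM offspring (14.0-fold; limma, adjusted p = 3.78e-06). It was called higher under each scaling and fit tried, and leaving out single libraries moved it between 4.01 and 4.38, and between 3.45 and 4.14.

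Col6a6, the adjacent gene and a chain of the same kind, measured 1.33, 1.69 and 3.13 RPM in Sham and 10.9, 9.55, 6.52, 7.57 and 4.89 RPM in Sham-OVA, with no overlap. It measured 0.967, 2.68 and 4.40 RPM in PM and 9.54, 5.33, 3.72 and 1.82 RPM in PM-OVA, where PM-OVA replicates 3 and 4 lay within the PM range. Col6a6 rose 3.38-fold in Sham offspring (log2 1.76 ± 0.24; limma, adjusted p = 2.01e-05), and the log2 fold change of 0.82 ± 0.40 in PM offspring did not pass (limma, adjusted p = 0.091). The difference between these responses was −0.94 ± 0.47 and did not pass either (limma interaction, adjusted p = 1). The call in PM offspring depended on the processing: it was made with TMM (adjusted p = 0.0103), median-of-ratios (1.12, adjusted p = 0.0154) and quantile scaling (1.26, adjusted p = 0.00522), with the length and GC trend removed, with DESeq2, with edgeR, with all 4 groups in one fit and without PM-OVA replicate 4 (1.18, adjusted p = 0.0197). The third gene of the cluster, Col6a4, was not called in either comparison, at 1.57 to 5.77 RPM in Sham and 2.18 to 3.98 RPM in Sham-OVA.

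Col6a1 and Col6a2, the core chains of every type VI microfibril, measured 208, 251 and 330 RPM and 176, 234 and 287 RPM in Sham. In Sham-OVA, Col6a1 measured 508, 503, 280, 410 and 353 RPM and Col6a2 646, 691, 320, 540 and 384 RPM. Each Sham-OVA library exceeded the Sham range for Col6a2, and Sham-OVA replicate 3 fell within it for Col6a1. In PM offspring Col6a1 went from 240, 248 and 408 RPM to 667, 422, 291 and 307 RPM, and Col6a2 from 223, 242 and 362 RPM to 754, 503, 309 and 280 RPM. The groups overlapped there, since PM replicate 5 was high and PM-OVA replicates 3 and 4 were low.

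Col6a2 rose 2.21-fold in Sham offspring (log2 1.14 ± 0.20; limma, adjusted p = 0.000155) and 1.65-fold in PM offspring (log2 0.72 ± 0.25; limma, adjusted p = 0.0211). Col6a1 rose by 0.65 ± 0.17 and 0.56 ± 0.23 on the log2 scale (limma, adjusted p = 0.00412 and 0.0464). The calls in PM offspring rested on PM-OVA replicate 1, without which Col6a1 was at 0.31 (adjusted p = 0.15) and Col6a2 at 0.45 (adjusted p = 0.0578). Without PM-OVA replicate 2 they were lost as well (adjusted p = 0.0933 and 0.0607), as was Col6a1 without any of PM replicates 1 to 4, 6 and 7 (adjusted p = 0.0583 to 0.0785). Col6a3, the third core chain, went the other way, by −0.79 ± 0.20 and −0.99 ± 0.24 (limma, adjusted p = 0.00305 and 0.00293), although it was not called in Sham offspring with TMM scaling (−0.33, adjusted p = 0.0781) and turned to 0.14 with the length and GC trend removed (adjusted p = 0.404).

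**Figure D4:**
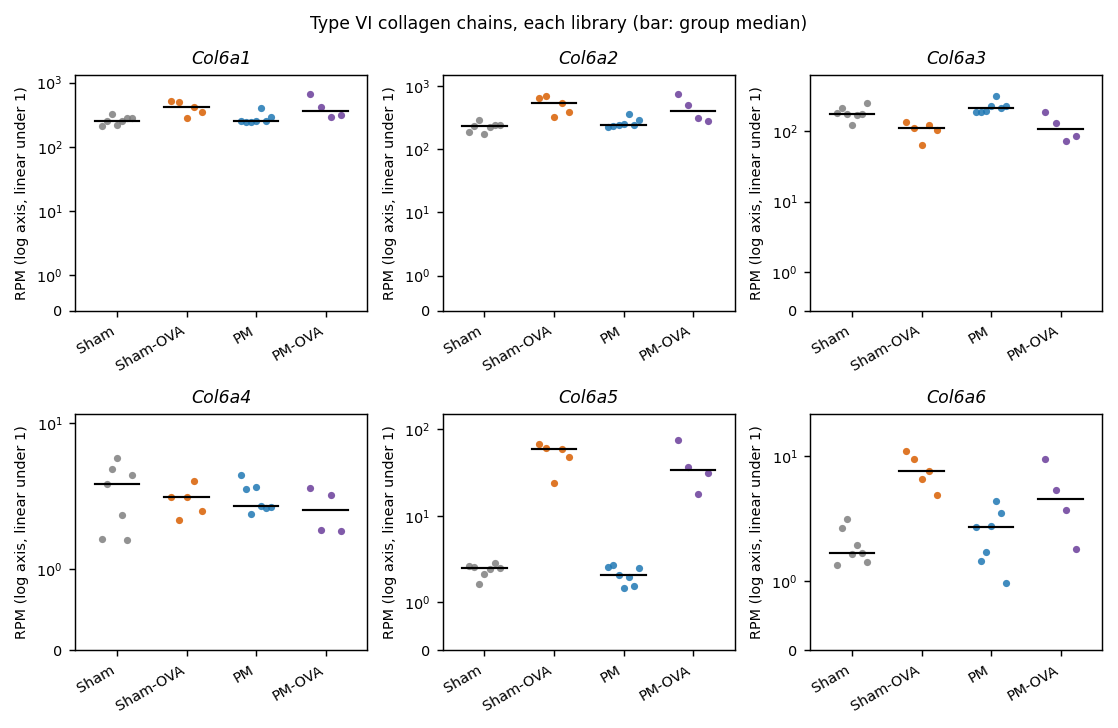
RPM of the 6 type VI collagen genes in each library (vertical axis, log scale that is linear under 1 RPM), with points from left to right by replicate number and a bar at the group median. Col6a5 lies between 1.45 and 2.85 RPM in the saline libraries and between 17.8 and 75.6 RPM in the OVA libraries, whereas Col6a4 stays level.

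The balance of Col6a1 to Col6a2 shifted with OVA in Sham offspring. The ratio was 1.07 to 1.22 in Sham and 0.786, 0.728, 0.876, 0.759 and 0.920 in Sham-OVA, with no overlap, a change of −0.50 in the mean log2 ratio (exact permutation p = 0.00126, adjusted p = 0.0118, n = 7 and 5). In PM it was 0.994 to 1.13 and in PM-OVA 0.885, 0.838, 0.942 and 1.10, a change of −0.16 that did not pass (exact permutation p = 0.0424, adjusted p = 0.119, n = 7 and 4). PM offspring without OVA were already lower than Sham by 0.12 on the log2 scale (0.07 ± 0.07 against 0.19 ± 0.06, n = 7 each; exact permutation p = 0.00466, adjusted p = 0.0202), with overlapping ranges. The difference between the OVA responses, tested after the values had been seen by permuting the maternal group within saline and within OVA libraries over 432432 splits, was 0.33 (exact permutation p = 0.00352, adjusted p = 0.0247 over 7 ratios). Leaving out single libraries gave 0.25 to 0.38 with adjusted p from 0.006 to 0.101, and the call was lost without any of Sham-OVA replicates 1, 2 and 4 and PM-OVA replicates 3 and 4, so it is not secure. No other ratio differed between the responses (adjusted p = 0.839 for each of the others).

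As shares of the collagen RPM, given here as a description, type IV collagen went from 48.7 ± 5.92% in Sham (n = 7) to 28.9 ± 1.22% in Sham-OVA (n = 5) and from 50.2 ± 1.70% in PM (n = 7) to 30.5 ± 1.73% in PM-OVA (n = 4). Type VI collagen went from 16.5 ± 3.03% to 31.5 ± 1.85% and from 15.4 ± 0.713% to 31.0 ± 1.31%. The summed collagen RPM was 4136 ± 376 in Sham, 3505 ± 966 in Sham-OVA, 5028 ± 1122 in PM and 3414 ± 1559 in PM-OVA. Ranges overlapped, at 3623 to 4558 RPM in Sham and 2110 to 4468 RPM in Sham-OVA. In PM the range was 4289 to 7479 RPM and in PM-OVA 2169 to 5493 RPM, also with overlap.

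As deposited, the fibrillar collagens were divided. In Sham offspring 2 of 9 rose, 1 fell and 6 did not pass, and in PM offspring 3 rose, 1 fell and 5 did not pass, with medians of 0.32 and −0.09. Over the 14 fits the counts ran from 1 to 6 higher and 0 to 1 lower in Sham offspring, with 5 higher and 0 lower under TMM, median-of-ratios, quantile, DESeq2 and edgeR, and from 2 to 4 higher and 0 to 3 lower in PM offspring. Col1a1, the major chain of type I collagen, measured 151, 172 and 183 RPM in Sham and 260, 259, 177, 233 and 147 RPM in Sham-OVA. It measured 161, 182 and 405 RPM in PM and 285, 205, 140 and 127 RPM in PM-OVA. Ranges overlapped in both cohorts. The log2 fold changes were 0.32 ± 0.15 and −0.24 ± 0.27 (limma, adjusted p = 0.0738 and 0.444), and those of the partner chain Col1a2 were 0.36 ± 0.18 and −0.09 ± 0.27 (limma, adjusted p = 0.0875 and 0.792). Type I collagen in Sham offspring lay near the threshold: with TMM scaling Col1a1 was at 0.78 (adjusted p = 0.000274) and Col1a2 at 0.82 (adjusted p = 9.38e-05).

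Col3a1, the type III chain that is laid down with type I, measured 252, 358 and 479 RPM in Sham and 548, 336, 60.6, 406 and 251 RPM in Sham-OVA. It measured 335, 436 and 684 RPM in PM and 712, 348, 89.5 and 70.3 RPM in PM-OVA. The OVA libraries fell on both sides of the saline range, with replicate 3 of Sham-OVA and the last 2 of PM-OVA far below it. The log2 fold changes of −0.40 ± 0.41 and −1.17 ± 0.51 did not pass (limma, adjusted p = 0.398 and 0.0603), but without PM-OVA replicate 1 the latter was −1.79 (adjusted p = 0.0013) and without PM-OVA replicate 2 it was −1.44 (adjusted p = 0.0405). In the same 3 low libraries the ratio of Col3a1 to Col1a1 was 0.345, 0.639 and 0.555 (each gene as RPM + 0.5), and the log2 ratio of Col3a1 to Col1a1 changed by −0.72 and −0.93 without passing (exact permutation, adjusted p = 0.11 and 0.127).

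Of the minor fibrillar chains, Col5a1, which helps to start type I fibrils, fell by 0.59 ± 0.18 and 0.86 ± 0.23 on the log2 scale (limma, adjusted p = 0.0103 and 0.00543). In Sham offspring this call was lost with TMM scaling (−0.14, adjusted p = 0.353) and the value turned to 0.17 with the length and GC trend removed (adjusted p = 0.296). Col5a2, its partner, was not called as deposited (−0.41 ± 0.36 and −0.86 ± 0.37; limma, adjusted p = 0.328 and 0.0558). Without PM-OVA replicate 1 it was at −1.26 in PM offspring (adjusted p = 0.00225), and without PM-OVA replicate 2 at −1.02 (adjusted p = 0.0451). Col5a3, a less common chain of type V collagen, rose by 0.68 ± 0.21 in Sham offspring (limma, adjusted p = 0.0104) and was at 0.21 ± 0.27 in PM offspring (limma, adjusted p = 0.504). In PM offspring it was called with TMM scaling (0.65, adjusted p = 0.0436), with quantile normalisation and with the length and GC trend removed.

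Col11a2, a chain best known from cartilage, rose in both comparisons from a low level. It measured 1.51, 3.93 and 6.83 RPM in Sham, 8.89, 10.2, 14.3, 12.1 and 5.84 RPM in Sham-OVA, 2.25, 3.30 and 4.99 RPM in PM and 7.32, 7.42, 10.2 and 9.62 RPM in PM-OVA. Only Sham-OVA replicate 5 fell within a saline range. The log2 fold changes were 1.28 ± 0.29 and 1.24 ± 0.23 (limma, adjusted p = 0.00137 and 0.000545). Of 8 cartilage markers 4 passed the filter, with 2 higher and 1 lower in Sham offspring and 3 higher in PM offspring, while Acan, the main proteoglycan of cartilage, was at 0 in all 4 groups. Col27a1, another cartilage-associated chain, rose by 0.75 ± 0.15 in PM offspring (limma, adjusted p = 0.00111) and was at 0.23 ± 0.27 in Sham offspring (limma, adjusted p = 0.476). Col24a1 was under 1.2 RPM in all libraries and was called higher in PM offspring, at 0.64 ± 0.25 (limma, adjusted p = 0.0361), a call lost without any of PM replicates 1, 2 and 6 and PM-OVA replicates 1, 2 and 4 (0.53 to 0.63, adjusted p = 0.0569 to 0.101).

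The FACIT collagens split between their best-expressed members. Col14a1, which binds the surface of type I fibrils, measured 29.2, 35.2 and 50.8 RPM in Sham and 113, 121, 90.1, 104 and 80.0 RPM in Sham-OVA. It measured 35.8, 41.1 and 54.6 RPM in PM and 107, 87.6, 66.9 and 102 RPM in PM-OVA, so that each OVA library was above each saline library. It rose 2.68-fold in Sham offspring (log2 1.42 ± 0.16; limma, adjusted p = 3.41e-06) and 2.16-fold in PM offspring (log2 1.11 ± 0.16; limma, adjusted p = 0.000146).

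Col12a1, a near relative that also sits on type I fibrils, went the other way. It measured 36.4, 43.4 and 53.8 RPM in Sham and 7.64, 5.27, 0, 5.66 and 8.33 RPM in Sham-OVA, with no read in Sham-OVA replicate 3, where 3 reads would be 0.932 RPM. In PM it measured 43.5, 52.5 and 68.1 RPM and in PM-OVA 13.9, 8.96, 2.52 and 4.18 RPM, again without overlap. It fell by 3.41 ± 0.55 on the log2 scale in Sham offspring (10.6-fold; limma, adjusted p = 7.39e-05) and by 3.02 ± 0.34 in PM offspring (8.09-fold; limma, adjusted p = 3.48e-05). Without Sham-OVA replicate 3, the log2 fall in Sham offspring was 2.64. Col16a1, a smaller FACIT-like collagen, rose by 0.73 ± 0.17 and 0.60 ± 0.18 (limma, adjusted p = 0.00195 and 0.00963), and Col9a3 and Col20a1 were not called.

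All 4 transmembrane collagens fell in both comparisons, except that Col25a1 turned with the length and GC trend removed, with medians of −1.48 and −1.50. Col25a1 passed the filter through saline libraries only, so its fall is tied to the filter and adds no support to this count. The best expressed was Col23a1, at 86.3, 120 and 152 RPM in Sham and 36.5, 30.3, 12.4, 35.9 and 38.9 RPM in Sham-OVA. In PM it was at 102, 120 and 169 RPM and in PM-OVA at 42.2, 54.6, 26.2 and 22 RPM, and the groups did not overlap. It fell 4.14-fold and 3.64-fold (log2 −2.05 ± 0.25 and −1.86 ± 0.23; limma, adjusted p = 6.05e-06 and 6.57e-05). Col13a1 fell by 1.64 ± 0.23 and 1.59 ± 0.30, and Col17a1, the hemidesmosome collagen of epithelial cells, by 1.32 ± 0.26 and 1.41 ± 0.24 on the log2 scale. Col25a1 rested on few reads, 77 in Sham against 2 in Sham-OVA and 73 in PM against 5 in PM-OVA. Its fitted falls of 1.04 and 0.90 turned to 0.05 and 0.18 with the length and GC trend removed and no longer passed (adjusted p = 0.874 and 0.517).

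Among the remaining collagens, Col8a2, a short chain that forms networks with Col8a1, was at 17.8, 21.8 and 24.6 RPM in Sham and 2.5, 3.01, 0.311, 3.82 and 4.60 RPM in Sham-OVA. In PM it was at 15.0, 20.3 and 22.2 RPM and in PM-OVA at 13.1, 8.27, 2.66 and 1.27 RPM, still below all PM libraries. It fell 7.73-fold and 3.84-fold (log2 −2.95 ± 0.35 and −1.94 ± 0.44; limma, adjusted p = 5.62e-06 and 0.00201), while Col8a1 itself was not called (0.25 and −0.29; limma, adjusted p = 0.36 and 0.459). The multiplexins, which link basement membranes to the matrix beneath, also parted. Col15a1 rose 2.52-fold in Sham offspring (log2 1.33 ± 0.23; limma, adjusted p = 0.000156) and was at 0.70 ± 0.35 in PM offspring (limma, adjusted p = 0.0893), where TMM scaling gave 1.16 (adjusted p = 0.00756) and leaving out PM replicate 5, at 49.1 RPM against 12.3 to 16.5 RPM in the rest of its group, gave 0.95 (adjusted p = 0.00236). Col18a1, the precursor of endostatin, fell by 1.09 ± 0.25 and 1.18 ± 0.25 (limma, adjusted p = 0.00122 and 0.00121). Col7a1, the anchoring fibril of epithelium, was at 0.44 ± 0.24 in Sham offspring (limma, adjusted p = 0.12) and rose by 0.89 ± 0.27 in PM offspring (limma, adjusted p = 0.0121). Col28a1 and Col26a1 were at or under 3.69 RPM in all libraries. Col28a1 was called lower in both comparisons and Col26a1 higher in PM offspring, where it went from 18 reads in PM to 36 in PM-OVA. Col26a1 passed the filter through OVA libraries only and Col28a1 mostly through saline ones, so the direction of these calls is tied to the filter. The Col28a1 call in Sham offspring was lost without Sham-OVA replicate 1 or 4 (adjusted p = 0.0597 and 0.0618), and with TMM, quantile, DESeq2 and edgeR. In PM offspring it was lost with quantile normalisation and array weights, and in both with the trend removed.

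**Figure D5:**
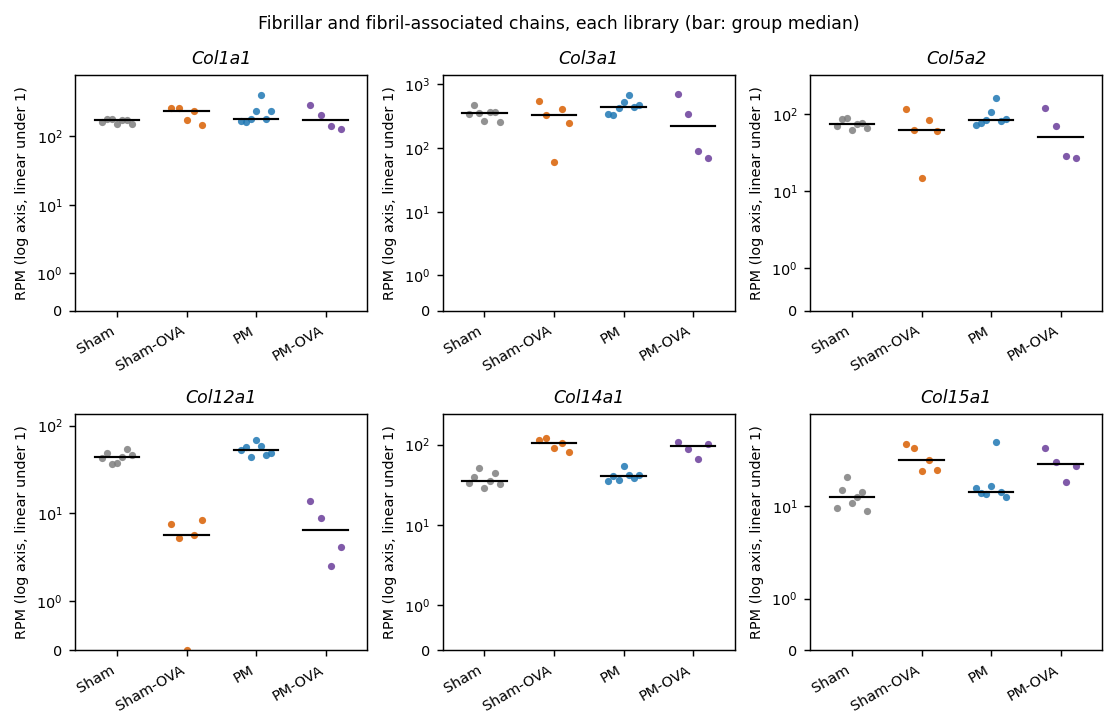
RPM of 3 fibrillar genes (Col1a1, Col3a1 and Col5a2) and of Col12a1, Col14a1 and Col15a1 in each library (vertical axis, log scale that is linear under 1 RPM), with points from left to right by replicate number and a bar at the group median. The OVA libraries of Col3a1 range from 60.6 to 712 RPM around the saline libraries, whereas Col14a1 lies above them and Col12a1 below them in all OVA libraries.

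No single collagen gene was called for maternal exposure without OVA challenge. The log2 ratio of Col6a1 to Col6a2 did differ between PM and Sham, by −0.12, as given above (exact permutation, adjusted p = 0.0202). In PM against Sham, 0 of 37 collagen genes passed the limma test, with a background of 0% of all genes, and DESeq2 and edgeR also called 0. At an unadjusted p of 0.05, 8 of the 37 collagen genes were counted, a larger share than the 4.35% of all genes. Of these 8, 7 had positive values, and all had an adjusted p of 0.898. The smallest p-values belonged to Col26a1 (−0.40 ± 0.13), Col12a1 (0.27 ± 0.11) and Col5a1 (0.25 ± 0.10). Under OVA, PM-OVA against Sham-OVA gave 0 called and 0 at an unadjusted p of 0.05, against 0% and 1.86% of all genes. In that comparison the smallest p belonged to Col6a6, Col5a3 and Col8a2, with log2 differences of −0.73 ± 0.44, −0.36 and 0.83 ± 0.71. DESeq2 and edgeR called 0 collagen genes in it as well. The spread of the OVA groups limits this comparison, since the median SE of a collagen gene was 0.33 on the log2 scale.

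The interaction, which tests whether the OVA response differed between maternal groups, also gave 0 collagen genes, with 0 at an unadjusted p of 0.05 against a background of 0% called and 5.08% unadjusted, and 0 by DESeq2 and edgeR. The largest difference among those with the smallest p was that of Col6a6 above, followed by Col26a1 (0.77) and Col1a1 (−0.57 ± 0.31). This result depends on the libraries. Without Sham replicate 1, Sham-OVA replicate 3 and PM-OVA replicate 1, 1 collagen gene was higher (Col26a1, 1.34) and 2 were lower (Col3a1, −1.91, and Col5a2, −1.31), against 2.19% and 6.01% of all genes. This removed the shallowest Sham-OVA and the deepest PM-OVA library, and kept PM-OVA replicates 3 and 4, at 5922469 and 4324326 reads. Sham-OVA replicate 3 deviated from its group mean together with these replicates (r = 0.617 and 0.536 over all genes). With PM-OVA replicate 1 the correlation was −0.635. The part of these library differences in the interaction calls was not tested. With array weights, whose fit did not fully converge, 2 were higher and 12 lower, against 3.88% and 23.6% of all genes, and the 12 included Col4a3 (−1.33 ± 0.36; adjusted p = 0.00942) and Col6a5 (−1.12 ± 0.33; adjusted p = 0.0134).

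The genes that make, process and bind collagen were counted in 5 lists, to be read against the 20.6% and 20.1% of all genes that were higher and the 47.5% and 45.2% that were lower in Sham and PM offspring. Of 22 genes for chain modification, folding and export, 5 rose and 8 fell in Sham offspring and 4 rose and 9 fell in PM offspring. Ppib, a prolyl isomerase that helps the helix to fold, rose by 1.16 ± 0.21 and 0.77 ± 0.13 on the log2 scale (limma, adjusted p = 0.000194 and 0.000424). Crtap, a partner of the prolyl hydroxylase P3h1, fell by 2.91 ± 0.53 and 2.88 ± 0.80 (limma, adjusted p = 0.000223 and 0.00709), but in PM offspring not by DESeq2 (−1.37, adjusted p = 0.138) or edgeR (−1.24, adjusted p = 0.114). It ranged from −3.86 to −2.07 there without PM-OVA replicates 1, 3 and 4 in turn, and was −2.19 in Sham offspring without Sham-OVA replicate 3. Of 7 propeptide removal genes, 4 fell and 0 rose in each comparison, and the deepest was Tll1, at −1.79 ± 0.32 and −1.03 ± 0.36 (limma, adjusted p = 0.000213 and 0.022). In PM offspring the Tll1 call was lost without PM-OVA replicate 3 (−0.75, adjusted p = 0.089) or 4 (−0.84, adjusted p = 0.0732), and with TMM, quantile, DESeq2, edgeR and the trend removed.

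Of 10 proteins that organise fibrils, 6 fell in each comparison, and 2 rose in Sham offspring and 0 in PM offspring. Lum, a proteoglycan that spaces fibrils, fell by 2.34 ± 0.43 and 3.11 ± 0.52 (limma, adjusted p = 0.000233 and 0.00035; −3.76 in PM offspring without PM-OVA replicate 1). Fbln1, a matrix glycoprotein, rose by 0.81 ± 0.16 in Sham offspring (limma, adjusted p = 0.000339) and was at 0.54 ± 0.28 in PM offspring (limma, adjusted p = 0.111), where TMM scaling called it (1.00, adjusted p = 0.00219). Of 14 collagen receptors and uptake genes, 4 rose and 8 fell in each comparison. Ctsk, a collagen-degrading protease, rose by 2.32 ± 0.24 and 2.17 ± 0.21 (limma, adjusted p = 1.74e-06 and 1.44e-05), and Itga2, a collagen-binding integrin, fell by 2.03 ± 0.39 and 2.22 ± 0.42 (limma, adjusted p = 0.000334 and 0.000654). Of 16 basement membrane partners of type IV collagen, 14 fell and 1 rose in each comparison. Lama2, a laminin chain, was at −4.16 ± 0.28 and −4.06 ± 0.59 (limma, adjusted p = 3.16e-08 and 0.000158), and at −4.87 in PM offspring without PM-OVA replicate 1. The one that rose was Hspg2, which codes for the proteoglycan perlecan, at 1.43 ± 0.37 and 1.27 ± 0.44 (limma, adjusted p = 0.00297 and 0.0214), a call lost in PM offspring without PM-OVA replicate 3 (0.94, adjusted p = 0.0902) or 4 (0.85, adjusted p = 0.0878).

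Markers of the cells that make collagen moved with these groups, and their part in the results was not tested. Of all genes, 47.5% fell and 20.6% rose in Sham offspring and 45.2% and 20.1% in PM offspring, and several marker counts lie near these shares. Of 8 markers of alveolar type 1 cells, a source of the alveolar type IV network, 6 fell in each comparison, and 1 rose in Sham offspring. Their summed level was 6240 to 9129 RPM in Sham, 4119 to 5594 in Sham-OVA, 7708 to 8548 in PM and 5010 to 5802 in PM-OVA. Of 10 fibroblast markers, 6 fell and 1 rose in Sham offspring and 7 fell in PM offspring, and their summed level was 5182 to 7388 RPM, 1583 to 4290 RPM, 5567 to 10383 RPM and 2131 to 6106 RPM in the same order of groups. Of 6 pericyte markers, 5 fell and 1 rose in each comparison, and of 8 markers of capillary endothelium 4 fell and 2 rose. The 8 smooth muscle and myofibroblast markers were divided, with 4 higher and 4 lower in Sham offspring and 3 each way in PM offspring. Leukocyte markers rose in 4 and fell in 1 of 8 in each comparison, and 11 of 11 genes of the type 2 response rose in both. Of the other lists, 2 of 8 alveolar type 2 markers rose and 3 fell in each comparison, 1 of 6 mesothelial markers rose and 2 fell, and 3 of 8 cardiac markers fell and 0 rose. Of 5 tested Schwann cell markers, 1 rose and 4 fell in Sham offspring and 2 fell in PM offspring. None of the fibroblast, pericyte, endothelial, alveolar or leukocyte markers was at 0 in all libraries of a group.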

How the data were processed

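Strand-specific mRNA libraries of whole lung were aligned by the authors with Bowtie2 after trimming with Trimmomatic and counted over genes in SeqMonk. Build mm10 is named in the submitters' processing notes. The deposited table is named after RPKM, and limma tests were planned for that unit, but its values are RPM, read counts scaled to library size: 100% were whole multiples of 1 read within 0.02 reads, so that read counts were recovered. Bowtie2 does not splice, so reads across exon junctions can be lost.

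Values were analysed as log2(RPM + 0.5) with limma 3.58.1 in R 4.3.3 (trended empirical Bayes; Benjamini-Hochberg) over 16795 genes with 0.5 RPM in 4 libraries, fitting the groups compared, or all 4 groups for the interaction. edgeR 4.0.16 and DESeq2 1.42.0 on recovered reads, other scalings, filters, weights, a replicate block and left-out libraries were alternatives. Scripts were tested on simulated data. Chain ratios, of RPM + 0.5, were compared with exact permutation tests. Levels per kb used the summed exon length. Members, the 5 pathway lists and 12 marker lists were chosen with earlier results of these data known. Genes with full statistics were, by rule, the 3 highest of each class, the 3 largest non-overlapping rises and falls, the 3 smallest p elsewhere, ratio chains, those next to the filter and the extremes of each pathway list. Other members are given since each belongs to the set described.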

Additional observations from a re-analysis of the deposited data

Results flagged for a closer look

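Collagen levels (on the log2 scale), chain ratios and class shares were screened with Dixon's test for a library far from the rest of its group, in 192 combinations of a measure and a group, of which 25 passed. Chance passes about 1 in 20 groups, and the combinations share libraries. Ratios are of RPM + 0.5.

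PM replicate 5 was far above the rest of its group in RPM for Col1a1 (405 against 161 to 234), Col1a2 (694 against 246 to 344), Col4a1 (1580 against 852 to 1066), Col4a2 (1302 against 713 to 861), Col4a5 (135 against 88.8 to 105), Col6a1 (408 against 240 to 296), Col6a3 (324 against 191 to 233), Col8a1 (69.3 against 16.2 to 22), Col15a1 (49.1 against 12.3 to 16.5) and Col16a1 (46.4 against 24.2 to 30.7). It was far below for the epithelial Col17a1 (3.76 against 6.11 to 8.49) and for the log2 ratio of Col4a3 to Col4a1 (−2.46 against −1.95 to −1.58). In summed marker RPM it was also apart, at 1793 against 4907 to 5998 for capillary endothelium, 1709 against 662 to 939 for smooth muscle and 10383 against 5567 to 7769 for fibroblasts, and the part of this in its collagen levels was not tested. PM replicate 4 was high for Col14a1, at 54.6 against 35.8 to 42.2 RPM.

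Sham-OVA replicate 3, the shallowest library, was far below the rest of its group in RPM for Col4a3 (1.55 against 12.8 to 20.6), Col4a5 (9.63 against 29.3 to 40.3), Col8a2 (0.311 against 2.5 to 4.60), Col12a1 (0 against 5.27 to 8.33), Col18a1 (14.3 against 31.8 to 38.8) and Col23a1 (12.4 against 30.3 to 38.9). Its log2 ratios of Col3a1 to Col1a1 (−1.54 against 0.38 to 1.08) and of Col4a3 to Col4a4 (−5.11 against −2.70 to −2.21) were low as well. It was far above for Col20a1 (14.3 against 5.35 to 6.43 RPM) and Col27a1 (66.2 against 34.4 to 37.0 RPM).

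In Sham, replicate 7 had a high log2 ratio of Col4a3 to Col4a1 (−1.06 against −1.79 to −1.54), and replicate 3 a low log2 ratio of Col4a3 to Col4a4 (−0.81 against −0.07 to 0.16). The OVA response of the log2 ratio of Col6a1 to Col6a2 differed between the maternal groups by 0.33, as tested in the report.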

How the results depend on the processing

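As deposited, 9 collagen genes rose and 16 fell in Sham offspring and 10 rose and 16 fell in PM offspring. The count that rose in Sham offspring became 15 with quantile normalisation, 14 with median-of-ratios scaling, 14 with TMM scaling, 14 with DESeq2, 14 with edgeR and 15 with the length and GC trend removed, and the last left 9 lower in Sham and 10 lower in PM offspring. The study's threshold (adjusted p under 0.000001 and a log2 change above 1) was set by the study on DESeq2. Applied here to limma, it left 1 higher and 1 lower in Sham and 0 and 0 in PM offspring. With an adjusted p under 0.05 and a log2 change above 1 in limma, there were 4 higher in PM offspring. In the interaction, array weights gave 2 higher and 12 lower, and leaving out the 3 doubted libraries (Sham replicate 1, Sham-OVA replicate 3 and PM-OVA replicate 1, chosen after seeing the data) gave 1 higher and 2 lower. With the length and GC trend removed, log2 fold changes turned to 0.088 for Col4a1, 0.17 for Col5a1, 0.049 for Col25a1 and 0.14 for Col6a3 in Sham offspring and 0.18 for Col25a1 in PM offspring, none of them called. The cause was not tested.

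Of the chain ratios, without the 3 doubted libraries Col4a1 to Col4a2 in Sham offspring was 0.24 and the difference of the Col6a1 to Col6a2 responses 0.39, neither passing (exact permutation, adjusted p = 0.0571 and 0.052). Leaving out single libraries gave 0.16 to 0.36 for Col4a1 to Col4a2 and −0.24 to −0.11 for Col6a1 to Col6a2 in PM offspring, and 0.25 to 0.38 for the difference of the responses.

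Replicate numbers are those of the sample titles. The library names number most OVA libraries differently (Sham-OVA replicate 3 is SHAM-OVA_4_RNA), and that numbering was not tried as a pairing. The title numbers were not taken to pair the libraries, since in no pair of groups did every same-numbered pair correlate above 0.1. Correlations were −0.0665 to 0.116 for Sham with Sham-OVA and −0.101 to 0.0625 for PM with PM-OVA, but 3 of 4 were above 0.1 for Sham-OVA with PM-OVA (−0.311 to 0.617, median 0.407) and for Sham with PM-OVA (median 0.161). Pairs with unlike numbers had a median of −0.219 for Sham-OVA with PM-OVA and of −0.014 for Sham with PM-OVA. What lies behind these differences was not tested. With the replicate block, 8 rose and 16 fell in Sham and 9 rose and 16 fell in PM offspring, compared with 9 and 15, and 10 and 16, in the same libraries without it. Of all 16795 genes, 2915 were higher and 7127 lower with the block in Sham offspring, against 3083 and 7327 without it. In PM offspring these counts were 2306 and 5701 with the block, against 2764 and 6171 without it. Col5a3 lost its call in Sham offspring (0.58, adjusted p = 0.0722) and Col7a1 in PM offspring (0.95, adjusted p = 0.0732).

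Over the genes named and their alternatives, 1151 values kept their direction and side of the threshold in Sham offspring, 46 gained and 35 lost a call and 4 turned. In PM offspring these counts were 1095, 40, 53 and 1. Genes under about 1 RPM, such as Col24a1, Col25a1 and Col26a1, rest on few reads, and depth limits them most in the OVA libraries.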

Other observations

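Over all genes tested, the log2 fold change under OVA was related to transcript length and GC content. Across 16503 genes, which are not independent replicates, Pearson's r with log2 length was −0.335 in Sham offspring and −0.357 in PM offspring, and r with GC content was 0.236 and 0.281. Across the 37 collagen genes r was −0.055 and −0.0938 with length and 0.125 and 0.191 with GC content, given as a description since these genes share the same libraries. Their transcripts were long, with a median of 6119 bases against 3174 bases for all genes tested. Between Sham and PM without OVA, r with length over all genes was 0.14.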
